A study of Mus musculus with 21 samples.

Results

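The MHC class II genes described here are 7 genes: the chains H2-Aa, H2-Ab1 and H2-Eb1, the peptide exchange subunits H2-DMa and H2-DMb1, the invariant chain Cd74 and the transactivator Ciita. They were chosen by name, and all 7 were found among the 32285 genes of the table. Their unique molecular identifiers (UMIs, each standing for 1 captured RNA molecule) were read in 30700 of the 51511 cells of 3 tissues, namely in macrophages, monocytes, dendritic cells, B cells, alveolar type 2 cells (AT-2), endothelial cells and fibroblasts.

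Class II molecules are paired chains on the cell surface that show peptides from the endosome to CD4+ T cells. Cd74 holds the new chains together and blocks their groove, the H2-DM pair exchanges its remnant for a peptide, and Ciita is the factor without which the whole set is hardly transcribed. Dendritic cells, B cells and many macrophages carry the set at all times, and in the lung AT-2 and parts of the capillary endothelium carry it too, while in most other cells it is induced by interferon gamma.

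The study took the tumor microenvironment (TME) of mT/mG mice, in which no Cre was used, so that every host cell carries tdTomato from the ROSA26 locus and the engrafted melanoma cells do not. Fragments of MT-ret melanoma were placed under the skin of hosts of both sexes that were 8 to 10 weeks old, the primary tumor was resected, and lung metastases formed later. Unchallenged lung came from other mT/mG mice with no melanoma. Living tdTomato+ or living tdTomato+ CD45- cells were sorted, and which of these gates a library had was not given in the sources used here, so that no share of leukocytes is compared between libraries. There were 4 libraries of each tissue, once those with identical cells were counted a single time and the names of replicate 1-3 were joined. The title makes replicate 1-3 a single sample, although the library names keep its mice apart. Its cells were summed here as 1 library per tissue. That library holds mice 2 and 3 in metastasis and mice 1, 2 and 3 in primary tumor, so these 2 libraries share mice. Metastasis and primary tumor of replicate 5 came from the same mouse, as did those of replicate 6, whereas the lungs came from separate mice. The library names give 3 run numbers, with replicate 1 or 1-3 in the first, replicate 4 in the second and replicates 5 and 6 in the third. What a run stands for is not stated. The labels give the tissue of the primary tumors as lung, which the transplant site contradicts.

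The libraries held 303 to 25966 cells, with a median of 1203 to 5356 UMIs per cell. Cells were clustered without the class II genes and named by their markers, so each name stands for cells that resemble the type. In the dendritic cell cluster 11 of 18 markers were raised, in the 2 clusters of C1q macrophages 5 and 8 of 12, in the AT-2 clusters 9 of 9, and in the 15 endothelial clusters 3 to 13 of 13. No pair of libraries of the 3 tissues shared more than 48 barcodes, and with the libraries sorted for melanoma cells included the highest number was 227. Doublets were not searched for. Below, a level is given in CPM, the counts of a gene per 1000000 summed UMIs of all cells of a type in a library, for libraries with at least 20 such cells.

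A pair of libraries stood apart. In unchallenged lung replicate 6 class II RNA was found in every type, with H2-Ab1 at 379 CPM in T and NK cells, which should lack it, against 36.7 to 195 CPM in those of the other 4 libraries. Its fibroblasts had 433 CPM. In primary tumor replicate 4 neutrophils had 475 CPM of H2-Ab1, against 0 to 104 CPM in the neutrophils of the other 8 libraries. Its melanoma cells had 118 CPM and 59.3% of those 27 cells held an H2-Ab1 UMI. Where leaving out these libraries turned a direction or changed a count of calls the values without them are given, and the part of free RNA in a value was not tested unless a level in such a type is given beside it.

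On GRCm38, 5 of the 7 genes lie on chromosome 17 within the MHC. These are H2-DMa (chr17:34119541-34139101), H2-DMb1 (chr17:34153072-34160230), H2-Ab1 (chr17:34257689-34269419) and H2-Eb1 (chr17:34305867-34316674) on the plus strand and H2-Aa (chr17:34282744-34287823) on the minus strand. Ciita lies on chromosome 16 (chr16:10480059-10528418). The promoters of class II genes share an X box, bound by the RFX complex, and a Y box, an inverted CCAAT bound by NF-Y, to which Ciita docks. The windows from 110 to 11 bases before the start are shown because the genes moved together in the cells below. They are from RefSeq (GRCm38.p6), 5′ to 3′ on the gene's strand, with matches to the Y box (ATTGG on either strand) and the X box (fixed letters with open positions between them, on either strand, as the longer run in capitals of H2-DMb1) in capitals. H2-DMb1 is at chr17:34153081-34153180, H2-Aa at chr17:34287834-34287933 on the minus strand and H2-Eb1 at chr17:34305757-34305856.
H2-DMb1: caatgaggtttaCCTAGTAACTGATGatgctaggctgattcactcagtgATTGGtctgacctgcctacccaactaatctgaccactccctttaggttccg
H2-Aa: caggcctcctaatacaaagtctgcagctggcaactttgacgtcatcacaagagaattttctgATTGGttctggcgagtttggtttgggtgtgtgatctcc
H2-Eb1: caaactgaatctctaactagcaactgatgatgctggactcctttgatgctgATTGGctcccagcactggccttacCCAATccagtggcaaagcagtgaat
ATTGG begins at -61, -48 and -59 in these windows, and the X box letters begin at -98 in H2-DMb1. Of 32851 promoters of 27025 genes, 19.2% hold the Y box letters and 0.0822% the X box letters in the same 100 bases, so the first match is common and the second is not. In H2-Eb1 a stretch differs from the X box letters in the first letter only, which the search does not count as a match. A match is a description of the letters only. The table matched 4 of the 7 genes. H2-DMa, with 2 starts, has neither motif between -110 and -11. H2-Ab1, Cd74 and Ciita were not matched.

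H2-Ab1, the beta chain of the A molecule, was highest in C1q macrophages of unchallenged lung and in dendritic cells. The class called C1q macrophages was named by a marker list that includes the complement C1q genes, and it joined 2 clusters. C1q genes were among the leading genes of the cluster led by Zmynd15 and Tmem119. They were not among those of the cluster led by Arg1, Folr2 and Pf4, which held more of the metastasis than of the lung cells. In this class H2-Ab1 in unchallenged lung was at 9914, 13239, 8056 and 4636 CPM in replicates 1, 4, 5 and 6. In metastasis it was 1799 CPM in replicate 1-3, 1177 in replicate 4, 1199 in replicate 5 and 848 in replicate 6, and in primary tumor 1936 in replicate 1-3 and 4262 in replicate 4. The 3 tissues did not overlap in these macrophages, with lung highest and metastasis lowest. Of genes with a mean of at least 20 CPM, 6% had metastasis below lung in this way and 16.4% primary tumor below lung. Metastasis lay below primary tumor for 5.3%. That order of the TME tissues was one of the whole class, since in the cluster that held most of the lung cells H2-Ab1 was 2639 and 1110 CPM in metastasis replicates 1-3 and 6 and 2103 and 3153 CPM in primary tumor replicates 1-3 and 4, which overlap.

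Dendritic cells came from 1 cluster, with Xcr1, Flt3, Itgae, Clec9a and Wdfy4 among its leading genes. Their values thus stand for cells like these and not for dendritic cells at large. These dendritic cells had 5167, 7049 and 4386 CPM of H2-Ab1 in unchallenged lung replicates 1, 5 and 6. In primary tumor replicates 1-3 and 4 they had 5969 and 8342 CPM. Cd74 in them was 24575, 22082 and 11465 CPM in lung and 24891 and 18843 CPM in primary tumor. The tissues overlapped for both genes. The order of dendritic cells and C1q macrophages depended on the tissue: H2-Ab1 was higher in C1q macrophages in the 3 lung libraries that held both and higher in dendritic cells in both primary tumor libraries. This difference in order was not tested.

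B cells came next, with a lowest H2-Ab1 level of 897 CPM, a median of 1636 and a highest of 2126 over 6 libraries. The lowest of them was unchallenged lung replicate 6. Classical monocytes, the Ly6c2+ cells that enter tissue from blood, ranged from 653 to 1573 CPM over 7 libraries with a median of 837. Another 2236 cells formed a monocyte cluster with markers of classical and nonclassical cells alike, and these mixed monocytes had 518, 752, 850 and 545 CPM in unchallenged lung replicates 1, 4, 5 and 6 and 52.0 CPM in metastasis replicate 1-3. Alveolar macrophages had 231, 425, 664 and 537 CPM in unchallenged lung replicates 1, 4, 5 and 6 and 564 CPM in metastasis replicate 1-3. AT-2, the surfactant-making epithelium, had 490 and 536 CPM in lung replicates 5 and 6 and 566 CPM in metastasis replicate 5. These values lay within the range of the alveolar macrophages. Ranges of B cells and classical monocytes overlapped, as did those of alveolar macrophages, AT-2 and endothelial cells.

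Endothelial cells reached 547, 328, 430 and 452 CPM of H2-Ab1 in unchallenged lung replicates 1, 4, 5 and 6. Metastasis had 464, 253, 273 and 184 CPM in replicates 1-3, 4, 5 and 6. Primary tumor had 92.6, 172, 19.9 and 0.758 CPM in the same order. All 4 primary tumor libraries were below all others. Of genes with a mean of at least 20 CPM, 14.5% had primary tumor below lung in this way and 8.34% had it below metastasis. In nonclassical monocytes, the patrolling cells of the vessel wall, unchallenged lung had 236, 248, 413 and 225 CPM, metastasis replicates 1-3, 4 and 6 had 125, 21.0 and 30.3 CPM, and primary tumor replicate 4 had 227 CPM. Every metastasis library was below every lung library, as held for 4.49% of genes with a mean of at least 20 CPM.

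Fibroblasts outside the 2 libraries that stood apart had 73.0 and 18.8 CPM of H2-Ab1 in lung replicates 4 and 5, 17.4 in metastasis replicate 5, and 10.5 and 9.63 in primary tumor replicates 5 and 6. T and NK cells of lung replicates 4 and 5 had 73.8 and 36.7 CPM. So in no library with both was the fibroblast level more than 0.19 above that of T and NK cells on the log2 scale. Fibroblasts of lung replicate 6 and primary tumor replicate 4 had 433 and 195 CPM, beside 379 CPM in T and NK cells and 475 CPM in neutrophils of those libraries.

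**Figure D1:**
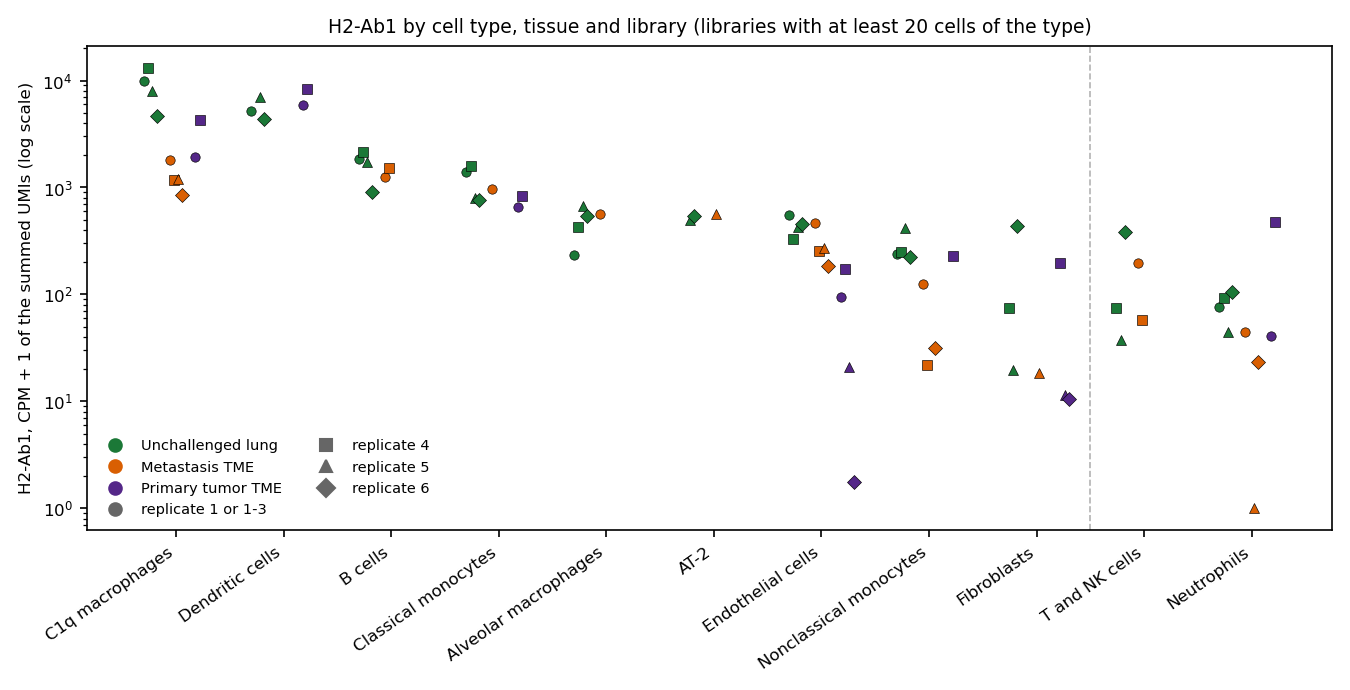
H2-Ab1 in CPM plus 1 of the summed UMIs (log axis) by cell type, with 1 point per library of at least 20 cells, coloured by tissue and shaped by replicate. Types right of the dashed line should lack class II; C1q macrophages of lung lie between 4636 and 13239 CPM, and endothelial cells of primary tumor lie at 172 CPM or below.

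Inside a library the types could be compared without differences between libraries. The log2 ratio of CPM plus 10 was tested by exact sign flips over libraries, two-sided, for 7 members in 11 pairs of types. None of the 77 tests passed after Benjamini-Hochberg adjustment, and the smallest adjusted p was 0.155. Of these tests 13 had an unadjusted p under 0.05. With 7 libraries the smallest p this test can give is 0.0156, with 5 it is 0.0625 and with 3 it is 0.25, so a low count here says little. The ratio had the same sign in every library in 51 tests.

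H2-Ab1 was lower in classical monocytes than in C1q macrophages in 7 of 7 libraries, by a mean of 2.37 on the log2 scale (SD 0.87, exact p = 0.0156, adjusted p = 0.155). Nonclassical monocytes were below classical ones in 6 of 6 libraries, with a mean log2 ratio of -2.08 (SD 0.72, exact p = 0.0312, adjusted p = 0.155). Alveolar macrophages were below C1q macrophages in 5 of 5 libraries, with a mean log2 ratio of -3.72 (SD 1.49, n = 5). The ratio of endothelial cells to T and NK cells was above 0 in 5 of 5 libraries for all 7 members, with a mean of 1.74 for H2-Ab1 (SD 1.10) and the lowest value, 0.25, in lung replicate 6. For fibroblasts the same ratio was -0.17 (SD 0.46) over 3 libraries and above 0 in 1 of them. B cells were below C1q macrophages for H2-Ab1 in 5 of 6 libraries (mean log2 ratio -1.63, SD 1.25), while for Ciita the mean ratio was 0.26 (SD 1.33). Ciita was also the gene that set dendritic cells apart from C1q macrophages: its ratio was above 0 in 5 of 5 libraries with a mean of 1.41 (SD 0.82), against a mean of 0.28 (SD 1.01) for H2-Ab1, which was higher in 2 of 5.

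At the level of cells the share with an H2-Ab1 UMI was taken after each cell was thinned to 1000 UMIs, which left out 3713 shallower cells of the 3 tissues. Intervals are exact binomial at 95% and cover counting error only. In unchallenged lung 80.6% to 93.3% of C1q macrophages held such a UMI, in metastasis 30.4% to 47.6%, and in primary tumor 49.5% and 71.9%. Without thinning these were 88.9% to 97.5%, 58.3% to 63.9%, and 72.0% and 90.6%. In T and NK cells, which should lack the gene, the thinned share was 4.41% to 5.76% in 4 libraries and 25.2% in lung replicate 6 (8.57% to 15.8% and 34.3% unthinned), with a median depth of 1544 to 4683 UMIs per cell against 1536 to 7396.5 in C1q macrophages. In endothelial cells the share was 26.9% to 38.0% in lung, 11.9% to 38.8% in metastasis and 0% to 15% in primary tumor (38.6% to 66.0%, 27.5% to 55.0% and 0.392% to 58.7% unthinned). In the 252 endothelial cells of primary tumor replicate 6 no thinned cell held one (exact 95% interval up to 1.45%).

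H2-Aa, H2-Ab1 and H2-Eb1 together gave a count of chain UMIs per cell, again at 1000 UMIs. Among C1q macrophages the share with no chain UMI was 0%, 7.69%, 16.7% and 5.83% in unchallenged lung replicates 1, 4, 5 and 6. In metastasis it was 47.4%, 38.1%, 39.1% and 52.8% in replicates 1-3, 4, 5 and 6, and in primary tumor 36.1% and 13.1% in replicates 1-3 and 4. The lung and metastasis libraries did not overlap. Cells with 5 or more chain UMIs were 75.0% to 93.3% in lung and 19.4% to 38.1% in metastasis. At this depth most metastasis cells thus had either none or many. The share with none follows depth. In the same cells without thinning it was 25.6%, 19.0%, 26.1% and 30.6% in metastasis replicates 1-3, 4, 5 and 6. In lung replicates 1, 4, 5 and 6 it was then 0%, 2.56%, 11.1% and 4.48%. Dendritic cells had 0% to 12.5% of cells without a chain UMI in all 5 libraries.

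Classical monocytes were divided as well in most libraries. Between 39.3% and 77.6% of them had no chain UMI, and 7.32% to 26.8% had 5 or more, over 7 libraries. Cells with 1 to 4 were 45.1% in primary tumor replicate 4 and 39.3% in metastasis replicate 1-3, against 7.32% to 15.2% elsewhere. The share with none follows depth: without thinning it was 3.66% in primary tumor replicate 4 and up to 58.9%, in lung replicate 6. The class with 5 or more held 6 to 47 cells per library. The cells with 5 or more had a higher sum of the 18 dendritic cell markers than the cells with none in 7 of 7 libraries (141 to 705 CPM against 85.2 to 280 CPM). Their sum of the 12 C1q macrophage markers was higher in 7 of 7 libraries (3256 to 5505 CPM against 1302 to 4865 CPM) and that of the 9 classical monocyte markers lower in 7 of 7 (6965 to 8758 CPM against 10108 to 13987 CPM). B cell markers were higher in 6 of 7 (100.9 to 285 CPM against 97.3 to 261 CPM). These classes were made from the values themselves and are not tested, and the part of neighbouring types or doublets in them was not tested.

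**Figure D2:**
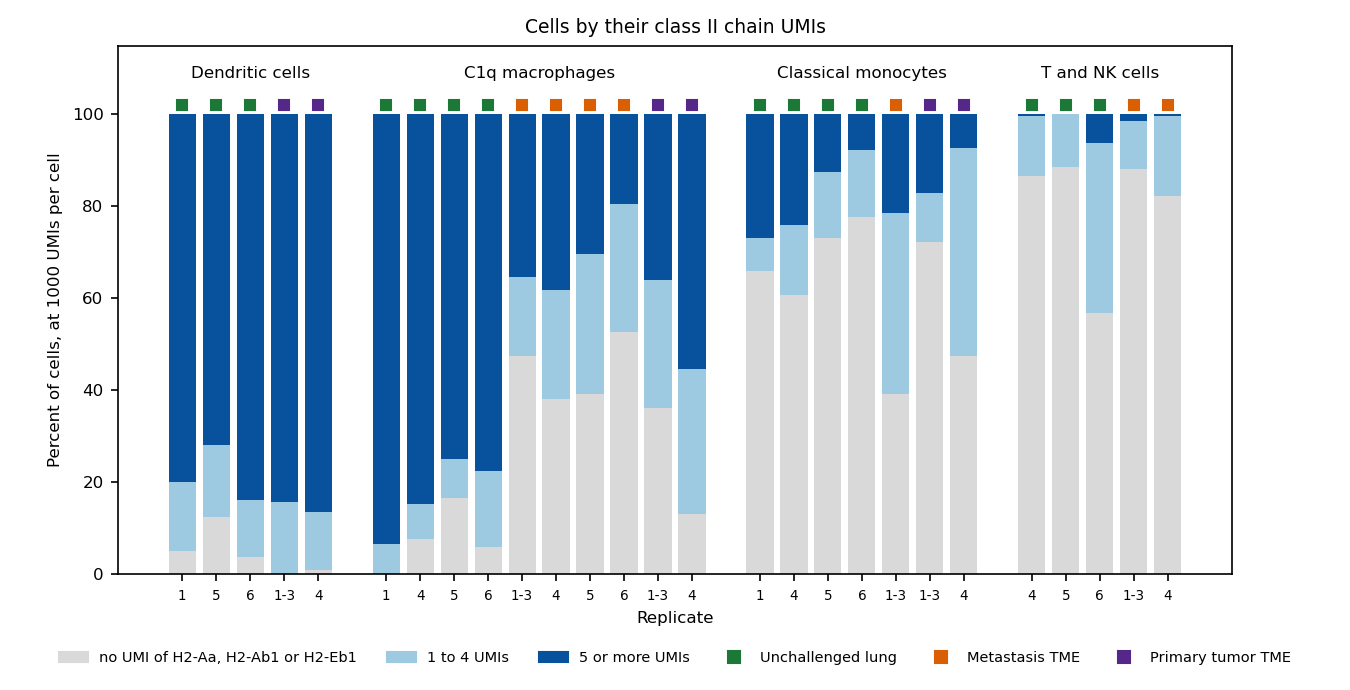
Percent of cells with no, 1 to 4 or at least 5 UMIs of H2-Aa, H2-Ab1 and H2-Eb1 together after thinning to 1000 UMIs per cell, with 1 bar per library and the tissue marked by the square above it. C1q macrophages of metastasis have 38.1% to 52.8% of cells with none, against 0% to 16.7% in unchallenged lung.

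The 7 genes kept close to each other over cell types. Over 104 sums of a type in a library, each member's log2 level had a correlation of 0.91 to 0.99 with the mean of the others, H2-Aa highest and Ciita lowest. The points share libraries and depth, so this is a description. The mix of members differed by type. UMIs of a 3′ assay do not scale with transcript length, and only the same ratio is compared between types here, in libraries with at least 20 H2-Ab1 UMIs.

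H2-DMa, the alpha subunit of the exchange factor, was high against H2-Ab1 in alveolar macrophages, with 132, 76.8, 57.1 and 36.9 UMIs per 100 of H2-Ab1 in unchallenged lung replicates 1, 4, 5 and 6 and 63.8 in metastasis replicate 1-3. Dendritic cells had 9.05 to 12 over 5 libraries and C1q macrophages of lung 5.94 to 9.12. No alveolar value overlapped with either. Classical monocytes with 24.4 to 51.0, nonclassical monocytes with 21.6 to 50.3 and T and NK cells with 24.3 to 83.9 overlapped with the alveolar range, and endothelial cells with 14.3 to 27.1 did not. In CPM the H2-DMa level of alveolar macrophages was 198 to 379, below the 413 to 904 of C1q macrophages in lung. The mean log2 ratio of the pair was -0.82 (SD 0.75, n = 5, exact p = 0.125, adjusted p = 0.196) against -4.84 (SD 1.86) for H2-Eb1. For H2-DMa it ranged from -1.54 to 0.39 and was below 0 in 4 of 5 libraries.

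Cd74, which also acts as a receptor at the surface, had its highest median per UMI of H2-Ab1 in nonclassical monocytes, at 7.15 with a range of 5.62 to 12.8 over 6 libraries. In C1q macrophages the ratio was 2.37 to 4.56 and in AT-2 3.70 to 6.29. Endothelial cells had 5.51, 1.20, 2.93 and 3.09 in unchallenged lung replicates 1, 4, 5 and 6, and 4.55, 1.36, 3.44 and 4.30 in metastasis replicates 1-3, 4, 5 and 6. Both low values belong to replicate 4, the second run. Its ratios were also the 3 lowest of 10 in C1q macrophages (2.37, 2.60 and 2.62 in metastasis, primary tumor and lung) and the lowest in dendritic cells (2.26) and classical monocytes (2.65), both of primary tumor, and in B cells (3.93, of metastasis). Lung replicate 4 had 5.12 in B cells, where the highest was 8.54, and 3.73, the median of 7 libraries, in classical monocytes. The part of the run in these ratios was not tested. Ciita per 100 H2-Ab1 UMIs was 7.03 to 20.9 in B cells and 1.74 to 3.97 in C1q macrophages, with no overlap. H2-DMb1 per 100 was 4.55 to 10.3 in B cells against 22.8 to 54.0 in alveolar macrophages. H2-DMb1 has a near-identical neighbour, H2-DMb2, and how their shared reads were split is uncertain.

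**Figure D3:**
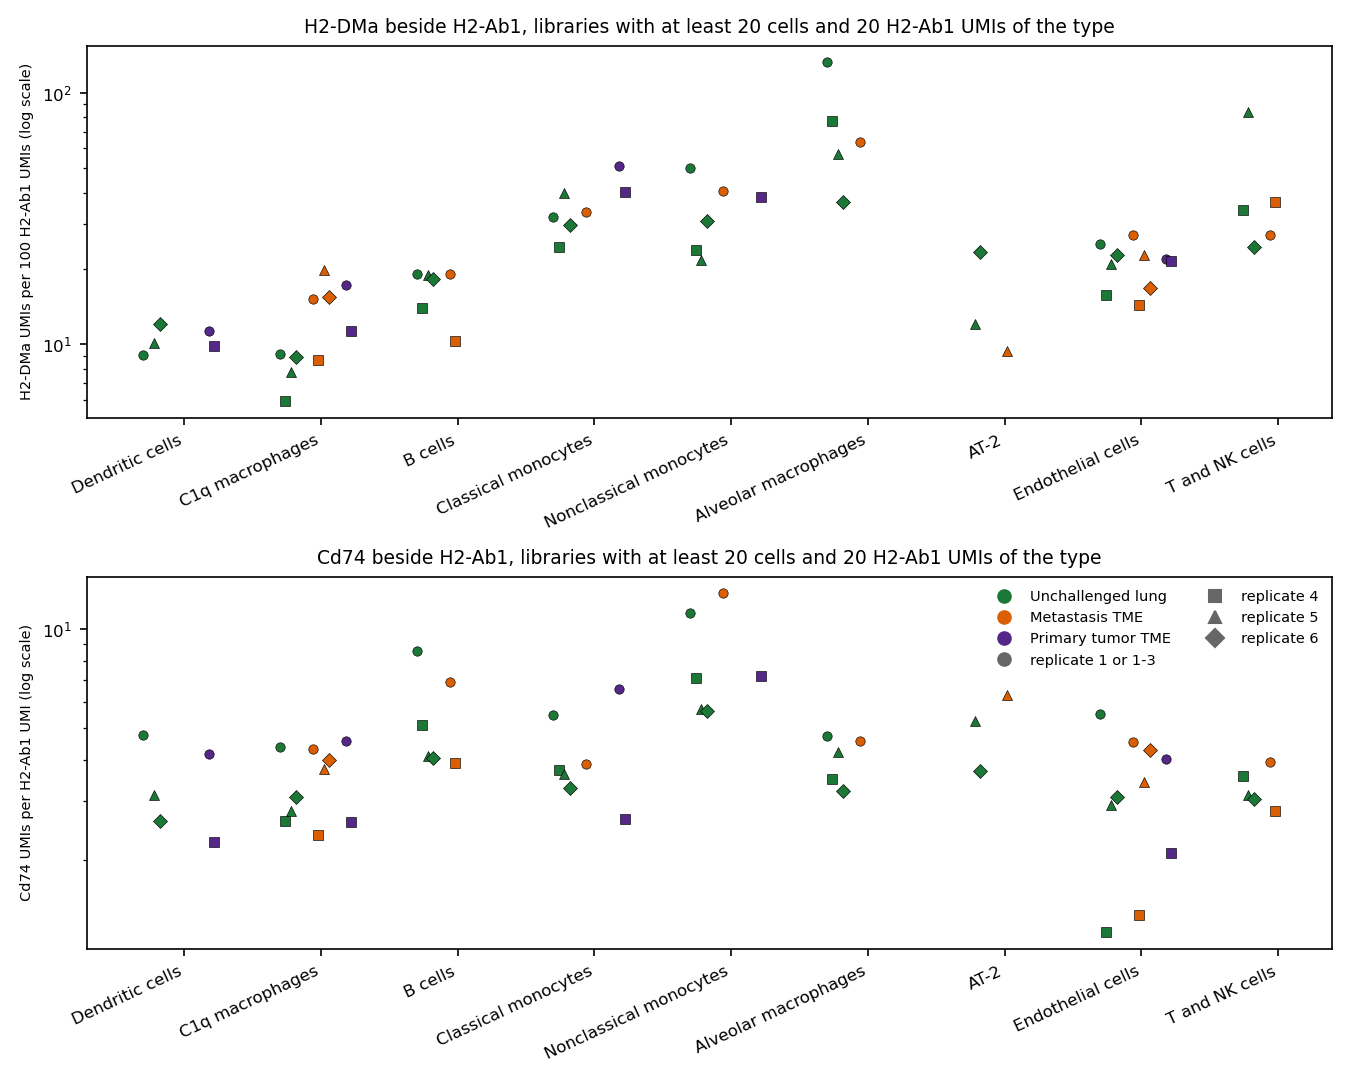
UMIs of H2-DMa per 100 H2-Ab1 UMIs (upper panel) and of Cd74 per H2-Ab1 UMI (lower panel), both on log axes, by cell type with 1 point per library. Alveolar macrophages lie at 36.9 to 132 in the upper panel and nonclassical monocytes at 5.62 to 12.8 in the lower.

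The tissues were compared within a type because the study asks how the TME of lung metastases differs from that of primary tumors and from lung without melanoma. Counts were summed per library and fitted over all genes with edgeR, and a gene was called at a Benjamini-Hochberg adjusted p below 0.05. The shares of all genes called below are those of the edgeR fits with all libraries. For fits with other settings this share is not given, so their counts of calls have no background beside them. Library names give different mouse numbers to the libraries of a tissue, but libraries with identical cells also carried different numbers, so a p measures the spread between these libraries.

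In C1q macrophages all 7 members were lower in metastasis than in unchallenged lung. By edgeR the log2 fold change was -2.75 for H2-Aa (SE 0.37, adjusted p = 0.000263), -2.86 for H2-Ab1 (SE 0.40, adjusted p = 0.000327) and -2.86 for H2-Eb1 (SE 0.42, adjusted p = 0.000441). Cd74 fell from 43523, 34742, 22589 and 14353 CPM in lung replicates 1, 4, 5 and 6 to 7779, 2795, 4512 and 3402 CPM in metastasis replicates 1-3, 4, 5 and 6 (edgeR log2 fold change -2.65, SE 0.42, adjusted p = 0.00081). H2-DMa fell least, with a log2 fold change of -1.84 (SE 0.38, edgeR adjusted p = 0.00576), and H2-DMb1 had -2.46 (SE 0.44, edgeR adjusted p = 0.00189). Ciita, the switch of the set, was at 309, 261, 192 and 131 CPM in lung and 71.4, 40.9, 20.9 and 16.1 CPM in metastasis (edgeR log2 fold change -2.35, SE 0.44, adjusted p = 0.00301). Of all 6393 genes tested, 3% were called lower in this comparison. All 7 members also had every metastasis library below every lung library, which held for 6% of genes with a mean of at least 20 CPM.

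All 7 were called with any 1 library left out, with DESeq2, with cells thinned to 1000 UMIs and without the 2 libraries that stood apart, and 5 were called with replicates 5 and 6 alone. The count of calls was lower when the name took in other cells. Between 86.1% and 100% of these macrophages in lung came from the cluster led by Zmynd15, Tmem119 and Ms4a7, against 54.2% to 57.1% in metastasis, where the rest came from the cluster led by Arg1, Folr2, Pf4 and Ccl8. Within the first cluster alone 1 of 7 members was called, with a median log2 fold change of -2.08 beside -2.65 over both and all 7 negative. H2-Ab1 there was 10187, 13239, 7691 and 4625 CPM in lung replicates 1, 4, 5 and 6 and 2639 and 1110 CPM in metastasis replicates 1-3 and 6, the only ones with 20 such cells, so fewer libraries entered. When class II genes were kept among the clustering genes, 3 of 7 were called, with a median of -2.03 and all 7 negative. In that clustering 85 metastasis and 380 primary tumor cells, in a cluster led by Arg1, Spp1, F10 and Thbs1, were named classical monocytes, and the class held 158 metastasis cells instead of 250.

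In primary tumor the same macrophages had 2509 and 4292 CPM of H2-Aa, 8830 and 11070 CPM of Cd74 and 65.5 and 122 CPM of Ciita in replicates 1-3 and 4. Against lung the log2 fold changes were -0.72 to -1.61 and none of 7 was called by edgeR, with 5 at an unadjusted p under 0.05 (adjusted p 0.0605 to 0.36), while DESeq2 called 4 and the fit without lung replicate 6 also 4. With the replicate number as a block in edgeR, 5 were called. Here it joins libraries of the same run, replicates 1 and 1-3 of the first and 4 of the second. Genes called lower made up 3.02% here, and 5 of 7 members had both primary tumor libraries below all lung libraries, as 16.4% of genes had. Against metastasis the 7 members were higher in primary tumor by 1.12 to 1.67 on the log2 scale, all with an unadjusted p under 0.05 and none called by edgeR or DESeq2, where edgeR called 0.109% of genes in either direction. Without the filter on low counts edgeR called 5 of 7. Both tissues drew on 2 clusters, and within the first alone the median log2 fold change of metastasis against primary tumor was -0.31, beside -1.25 over both, with an edgeR adjusted p of 1 for each member. Over both clusters and without primary tumor replicate 4, which left a single primary tumor library, the median was -0.82. The 2 primary tumor libraries lay above all 4 metastasis libraries for 6 of 7 members, all but Ciita, which held for 5.3% of genes.

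Some other genes of the pathway were called in these macrophages. Among all genes, edgeR called 3% lower and 3.33% higher in metastasis than in lung. In primary tumor against lung these shares were 3.02% and 2.85%. Of 20 listed pathway genes 15 were tested against lung. In metastasis 1 was called lower, H2-Ob, a subunit of the H2-DO inhibitor of H2-DM (log2 fold change -2.59, SE 0.59, edgeR adjusted p = 0.0127). In the same comparison 1 was called higher, the lysosomal protease Ctsl (2.12, SE 0.28, edgeR adjusted p = 0.000205). The list's median was -0.23, beside -0.01 over all genes tested. Against the same lung libraries, primary tumor had H2-Ob at -2.74 (edgeR adjusted p = 0.00347) and Ctsl at 1.71 (edgeR adjusted p = 0.00263), both called as well. Within the first cluster alone neither was called in metastasis (log2 fold changes -1.70 for H2-Ob and 1.25 for Ctsl, edgeR adjusted p = 0.22 and 0.093), and in primary tumor H2-Ob was (-2.26, edgeR adjusted p = 0.01) and Ctsl was not (1.08, edgeR adjusted p = 0.0576). Ctss, which trims the invariant chain, was at -0.23 and -0.04 and was not called. Of the interferon gamma targets Cxcl10 and Gbp2 that were tested, Cxcl10 was called higher in primary tumor (4.03, SE 0.87, edgeR adjusted p = 0.00793). The 4 class I genes H2-K1, H2-D1, B2m and Tap1 were at -0.30 to -0.53 in metastasis and 0.03 to 0.32 in primary tumor, none called by edgeR.

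In endothelial cells the low tissue was primary tumor. Ciita was at 12.1 and 2.54 CPM in primary tumor replicates 1-3 and 4 and had no UMI in replicates 5 and 6, against 56.9, 30.6, 65.7 and 34.4 CPM in unchallenged lung (edgeR log2 fold change -4.55, SE 0.73, adjusted p = 0.000929). The fitted change of a gene with libraries at 0 depends on the prior count. Called lower too were H2-DMb1 (-3.17, SE 0.70, edgeR adjusted p = 0.00616), H2-DMa (-2.72, SE 0.77, edgeR adjusted p = 0.0246) and H2-Ab1 (-2.56, SE 0.82, edgeR adjusted p = 0.0435). Cd74 had 3014, 395, 1258 and 1396 CPM in lung and 374, 360, 21.3 and 0.758 CPM in primary tumor replicates 1-3, 4, 5 and 6, with a log2 fold change of -2.94 (SE 1.11, edgeR adjusted p = 0.081). H2-Aa (-2.64, edgeR adjusted p = 0.0782) and H2-Eb1 (-2.06, edgeR adjusted p = 0.143) did not pass either. Thus 4 of 7 members were called lower, where 9.69% of the 9855 genes tested were. For 6 members, all but H2-Eb1, every primary tumor library lay below every lung library, which held for 14.5% of genes.

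Replicate 4 of primary tumor set much of this spread. Its endothelial cells had 172 CPM of H2-Ab1, below the 475 CPM of the neutrophils of that library. Without it 6 members were called, as without it and lung replicate 6 together, with replicates 5 and 6 alone 7, and without primary tumor replicate 5 only 2. Primary tumor replicates 5 and 6 had the lowest levels: in 116 and 255 endothelial cells with a median of 5745.5 and 5014 UMIs, the 7 members together gave few UMIs, from 0 for Ciita to 15 for Cd74 in replicate 5 and none or 1 each in replicate 6. The sum of 5 leukocyte genes was 137, 233, 734 and 4419 CPM in endothelial cells of lung replicates 1, 4, 5 and 6 and 145, 406, 11.4 and 4.55 CPM in primary tumor replicates 1-3, 4, 5 and 6. It was lowest in the 2 libraries with the lowest class II levels. With cells holding 2 or more of these genes left out, 5 members were called.

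Metastasis and unchallenged lung were not told apart in endothelial cells. The log2 fold changes were -0.42 to -0.76, with -0.61 for H2-Ab1 (SE 0.76), and edgeR and DESeq2 called none of 7, with none at an unadjusted p under 0.05 either. Differences of more than 2-fold are within these errors. Of all genes 1.07% were called in either direction. Against primary tumor, metastasis was higher in Ciita (log2 fold change 4.10, SE 0.77, edgeR adjusted p = 0.00696) and H2-DMb1 (2.74, SE 0.72, edgeR adjusted p = 0.0358), 2 of 7 members where 4.26% of genes were called higher, and 4 of 7 had every metastasis library above every primary tumor library, as 8.34% of genes had. This count was 3 without primary tumor replicate 4, 4 without both libraries that stood apart and 6 in replicates 5 and 6 alone, which are the same 2 mice in either tissue, and 0 with cells thinned to 1000 UMIs.

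**Figure D4:**
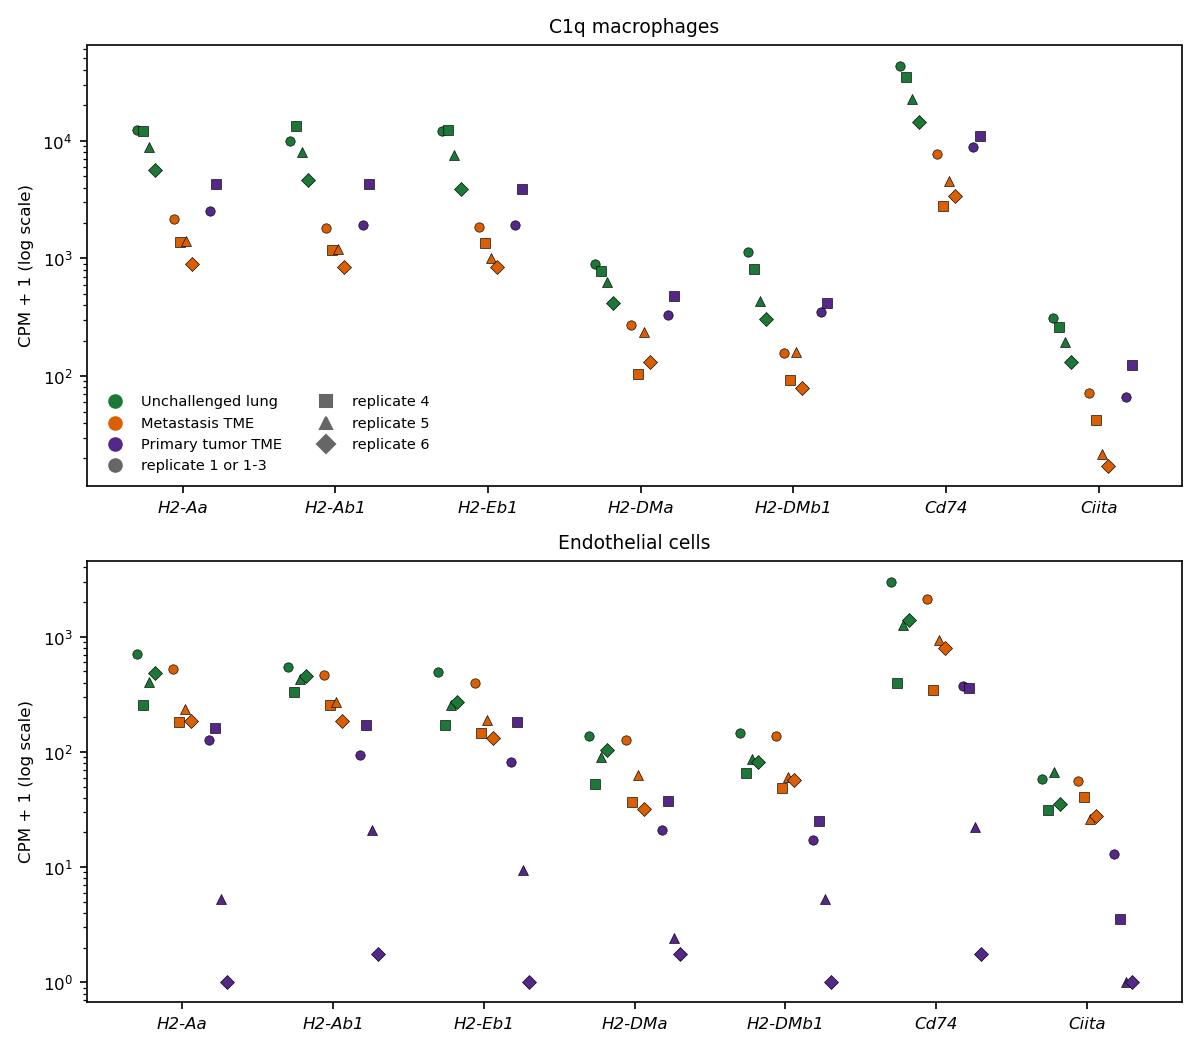
The 7 members in C1q macrophages (upper panel) and endothelial cells (lower panel) in CPM plus 1 (log axes), with 1 point per library coloured by tissue and shaped by replicate. In the upper panel metastasis is lowest for 6 of 7 members, all but Ciita, and in the lower panel primary tumor replicates 5 and 6 lie at 21.3 CPM or below.

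In endothelial cells of primary tumor against lung, edgeR called 9.69% of all genes lower and 9.49% higher. Of the pathway genes tested there, 11 of 20, the primary tumor had 2 called lower than lung and 1 higher. The lower ones were Irf1, a factor that interferon gamma induces (log2 fold change -2.04, SE 0.28, edgeR adjusted p = 0.000355), and Ifngr2, a chain of its receptor (-0.74, SE 0.25, edgeR adjusted p = 0.05 after rounding, below the threshold). The higher one was the lysosomal protease Lgmn (1.77, SE 0.29, edgeR adjusted p = 0.00102). Of the class I genes, H2-K1 (-1.36, edgeR adjusted p = 0.0137), B2m (-1.23, adjusted p = 0.0337) and Tap1 (-1.41, adjusted p = 0.0117) were called lower, 3 of 4 genes, and H2-D1 was at -0.82. Among 4 interferon gamma targets Cxcl9, a chemokine, was called higher (3.02, SE 0.90, edgeR adjusted p = 0.0316). In metastasis against lung none of the 11 pathway genes, 4 targets and 4 class I genes was called by edgeR, with 1 at an unadjusted p under 0.05.

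Within the endothelium H2-Ab1 differed by cluster. Clusters were put together by their leading genes after the values were seen, so these are descriptions with no test. The clusters led by Gpihbp1, Plvap and Glp1r had 921, 420, 717 and 422 CPM of H2-Ab1 in unchallenged lung replicates 1, 4, 5 and 6, the highest of 4 groups in all but replicate 6. In metastasis they had 653, 321, 612 and 412 CPM in replicates 1-3, 4, 5 and 6. Lung and metastasis overlapped in these cells. The clusters led by Ednrb and Car4, genes of the aerocyte capillary cell, had 36.5, 41.1, 186 and 457 CPM in the lungs and 32.3 and 44.0 CPM in metastasis replicates 5 and 6. Where both groups were measured, the second was lower in 5 of 6 libraries. The exception was lung replicate 6, with 4775 CPM of the 5 leukocyte genes in its Ednrb and Car4 clusters, against 302, 744 and 1560 CPM in replicates 1, 4 and 5.

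Clusters led by Slc6a2 and Vwf, which mark veins, had 464, 233, 420 and 331 CPM in the lungs, and the Gja5 cluster, of arteries, 150, 123, 160 and 561 CPM, the last being the highest of the groups in replicate 6. Endothelial clusters seen in tumor tissue were low. The cluster led by Igfbp3 and Peg3 had 34.5 and 5.45 CPM of H2-Ab1 in metastasis replicates 5 and 6, in the same libraries as the 612 and 412 CPM above. The Selp and Aplnr cluster of primary tumor had 56.4, 143, 18.7 and 0 CPM in replicates 1-3, 4, 5 and 6, the Tmem252 and Procr cluster 4.24 CPM in replicate 6, and the lymphatic Prox1 and Lyve1 cluster 0 CPM in replicate 5. Primary tumor had no lung cluster group with 20 cells in a library, so the contrast of whole endothelium compares different kinds of endothelial cell.

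**Figure D5:**
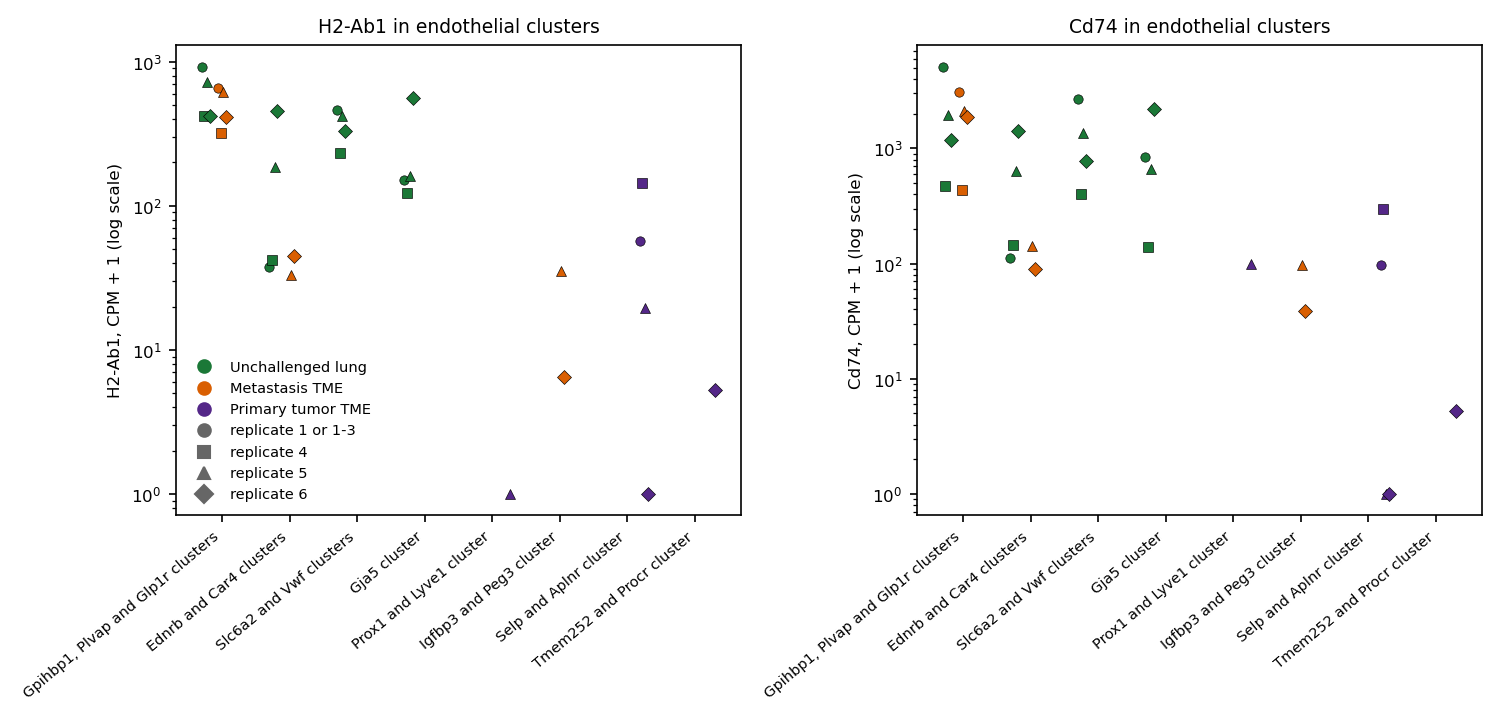
H2-Ab1 (left) and Cd74 (right) in CPM plus 1 (log axes) in groups of endothelial clusters named by their leading genes, with 1 point per library of at least 20 cells. The Gpihbp1, Plvap and Glp1r clusters lie at 321 to 921 CPM of H2-Ab1 and the Igfbp3 and Peg3 cluster of metastasis at 5.45 and 34.5 CPM.

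Fibroblasts could be compared between primary tumor and lung for 5 members, since H2-DMb1 and Ciita had too few counts. The tissues lay in different fibroblast clusters: 1722 of 1855 lung cells came from clusters with no primary tumor cell and 837 of 843 primary tumor cells from clusters with no lung cell. The log2 fold changes were -1.05 to -1.95 with SEs of 1.14 to 1.70. None was called by edgeR or DESeq2 or had an unadjusted p under 0.05, where edgeR called 6.61% of genes lower. The direction rested on single libraries: without lung replicate 6 the median turned from -1.29 to 0.84 with 2 of 5 members negative, and without primary tumor replicate 4 it was -6.19, with none called in either fit. Without both, 3 of the 4 members still tested were called, at levels of 9.63 to 73.0 CPM for H2-Ab1. The share of all genes called in that fit is not given here. In the 584 fibroblasts of primary tumor replicate 6 the members came apart. H2-Ab1 had 30 UMIs, H2-DMa 16 and H2-DMb1 7, beside 1 of H2-Aa, 3 of H2-Eb1, 2 of Cd74 and 0 of Ciita. Of 10 tested pathway genes 3 were called lower in primary tumor fibroblasts, among them Cd40 and Ifngr1 (log2 fold changes -2.28 and -1.85, edgeR adjusted p = 0.0413 and 0.0464).

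Monocytes, dendritic cells and B cells had no member called by edgeR with all libraries, the filter on low counts and no replicate block. In nonclassical monocytes the 6 members tested were lower in metastasis than in lung by 0.85 to 2.07 on the log2 scale, each with an unadjusted p under 0.05, led by H2-Ab1 (-2.07, SE 0.42, edgeR adjusted p = 0.112). DESeq2 called 1 of them and edgeR with the replicate block 3. Without lung replicate 6 edgeR called 1, and without the filter on low counts 6 members. With all libraries, the filter and no block, edgeR called 0.0868% of genes in either direction. Ciita was not tested there and had no UMI in any metastasis library. H2-Ab1 in nonclassical monocytes of metastasis replicates 1-3 and 4 was 125 and 21.0 CPM, below the 195 and 56.6 CPM of T and NK cells of those libraries. In lung replicates 4, 5 and 6 it was 248, 413 and 225 CPM, beside 73.8, 36.7 and 379 CPM in T and NK cells. The part of free RNA in this contrast was not tested. Classical monocytes of primary tumor against lung gave -0.52 to 0.17 (SEs 0.29 to 0.46) and dendritic cells 0.13 to 0.61 (SEs 0.24 to 0.36). B cells of metastasis against lung gave -0.60 to 0.51 (SEs 0.37 to 0.53). In these 3 types edgeR without the block and DESeq2 called none of 7 and none had an unadjusted p under 0.05, where edgeR called 0.451%, 0.437% and 0.0209% of genes in either direction. With the replicate block, edgeR called 5 of 7 in classical monocytes, with a median log2 fold change of -0.87, beside -0.30 without it. There only replicates 1 or 1-3 and 4 held both tissues, so the block fit rested on 2 shared replicate numbers. It left few libraries to estimate the spread from, and its share of all genes called is not given here. When class II genes were kept in the clustering, the median in classical monocytes turned to 0.39 with 1 of 7 negative and none called, the named class then including the 380 primary tumor cells given above. It was -0.54 without lung replicate 6 and -0.08 without primary tumor replicate 4, a fit with a single primary tumor library. In dendritic cells the median of 0.36 was 0.21 without lung replicate 6, with 2 of 7 members negative where none was before. In dendritic cells both primary tumor libraries lay above all 3 lung libraries for 2 of 7 members, H2-Aa and H2-Eb1, as did 15% of genes with a mean of at least 20 CPM. In neutrophils primary tumor replicate 4 is 1 of 2 libraries, and the tissues lay in different clusters, 1 with 1532 lung and 15 primary tumor cells and 1 with 3 and 272. There the same held for 2 of 5 members, H2-Eb1 and Cd74, and for 14.4% of genes. Every metastasis library lay below both primary tumor libraries in neutrophils for 3 of 4 members, H2-Aa, H2-Eb1 and Cd74, and for 8.55% of genes.

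The 10 genes whose level was most like the mean of the 7 members were sought over the 104 sums of a type in a library, among 7070 genes with a mean of at least 20 CPM that are neither members nor listed pathway genes. They were Ly86 (Pearson r = 0.81), a partner of a B cell and myeloid surface receptor, Fgd2 (0.79), Gpr183 (0.77), the oxysterol receptor that guides B cells and dendritic cells, Clec10a (0.77), a lectin that is also on the dendritic cell marker list, Tep1 (0.76), the nucleoside transporter Slc29a3 (0.76), the lysosomal nuclease Pld4 (0.74), the nucleotide receptor P2ry6 (0.74), the macrophage protein Aif1 (0.74) and Gdi2 (0.74). Ly86 was at a mean of 11.8 CPM in endothelial cells and 29.9 in AT-2 against 264 in dendritic cells, and Aif1 at 14.4 and 14.8 against 231. H2-Ab1 had means of 268 CPM, 531 CPM and 6182 CPM in these 3 types.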

How the data were processed

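Cell suspensions were cryopreserved, sorted and sequenced with a droplet 3′ assay. Raw UMI counts per gene and cell were deposited by the authors, who per the labels and the study's methods used Cell Ranger 6.1.1 with GRCm38 and Seurat 3.2.2. A log-normalized table was not used, and 0 columns belonged to no sample. Of 24 library names 5 held identical cells, and their 9924 barcodes were removed, which left 100359 cells. No cell was removed as a doublet. Total UMIs per library of the 3 tissues were 1777036 to 53506609.

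Cells were clustered in Seurat 5.3.0 (R 4.3.3) without class II genes, with 2000 variable genes, 17 principal components (12 in mesenchymal cells), 20 neighbours and a resolution of 0.5. Clusters were named by marker lists, and 3653 cells stayed unnamed. Members and lists were chosen with earlier results of these data known. Genes named beyond the members are the listed pathway, interferon gamma target and class I genes that passed the test, and the 10 genes most alike. Of 20 listed pathway symbols 19 are in the table.

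Counts of at least 20 cells per type and library were summed and tested with edgeR 4.0.16 (TMM, quasi-likelihood, all tissues of a type in 1 fit, at least 2 libraries per tissue), with p-values adjusted over all genes tested. Fits with 1 library left out could hold a single library of a tissue. DESeq2 1.42.0 was the other tool. Pairs of types were tested on log2 of CPM plus 10 by exact sign flips. Python 3.11.15, numpy 2.4.6, scipy 1.17.1, pandas 2.3.3 and matplotlib 3.10.9 were used. On simulated counts for endothelial cells of metastasis and lung (11812 genes), 11% of 2-fold and 90% of 4-fold changes were recovered, with 3.81% of calls false. Recovery at the spread that the class II genes had between libraries was not tested.

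Replicate numbers pair metastasis and primary tumor by mouse in replicates 5 and 6, in part in replicate 1-3, and all tissues by run. Deviations of same-numbered libraries correlated at -0.18 to 0.29. One gene of the pathway list is counted with the list but its values are not reported here.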

Additional observations from a re-analysis of the deposited data

Results flagged for a closer look

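In 63 groups of a member, type and tissue with 4 libraries, 1 library lay far from the others in 5, and chance gives about 1 in 20. Metastasis replicate 1-3 was high in endothelial cells for H2-Aa, at 524 CPM with the next library at 234, and for H2-DMb1, at 137 with the next at 60.0. The endothelial cells of that library had 1584 CPM of the 5 leukocyte genes, against 38.7 to 155 CPM in the other metastasis libraries, and the part of this in the levels was not tested. Unchallenged lung replicate 5 was high for H2-Ab1 in nonclassical monocytes, at 413 CPM with the next at 248, and for H2-DMb1 in alveolar macrophages, at 241 with the next at 130. H2-DMb1 in B cells was high in lung replicate 1, at 188 CPM with the next at 96.7.

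Some members lay in opposite directions in different types, with every library of one tissue beyond every library of the other. These differences between types were not tested. Against unchallenged lung, primary tumor was higher in dendritic cells for H2-Aa (mean 7059 CPM) and H2-Eb1 (6365 CPM) and lower in C1q macrophages, and for H2-Aa also lower in endothelial cells. In dendritic cells 15% of genes with a mean of at least 20 CPM had both primary tumor libraries above all 3 lung libraries, and no member was called there. Neutrophils of primary tumor were higher for H2-Eb1 (231 CPM) and Cd74 (589 CPM), with C1q macrophages lower for both and endothelial cells lower for Cd74. Those neutrophils are of 2 libraries, 1 of them replicate 4, which stood apart, and 14.4% of genes did the same. Their Cd74 was 952 CPM in replicate 4 and 226 CPM in replicate 1-3, beside 220 CPM in lung replicate 6, the highest of lung. Metastasis was higher than primary tumor in endothelial cells for H2-Aa (282 CPM), H2-Ab1 (294 CPM) and H2-DMb1 (75.2 CPM), as 8.34% of genes were, and lower in C1q macrophages, as 5.3% of genes were. For H2-Aa it was lower in neutrophils too, as were 8.55% of genes. Within the C1q cluster led by Zmynd15 H2-Ab1 of the 2 tissues overlapped.

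Melanoma cells of the 4 libraries sorted for them, which no comparison used, held some UMIs of H2-Ab1. It was 11 CPM in metastasis replicate 4 (16 UMIs in 282 cells), 0.333 in metastasis replicate 5, 1.42 in primary tumor replicate 4 and 1.46 in primary tumor replicate 5, where a count of 0 would allow up to 2.06, 0.05, 0.0526 and 0.0996 CPM. T and NK cells, which should lack it, had 36.7 to 379 CPM in the tissue libraries. These are other libraries, and the part of free RNA in the melanoma values was not tested.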

How the results depend on the processing

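Of the counts of members called, C1q macrophages of metastasis against lung stood at 7 with any 1 library left out, at 3 with class II genes kept in the clustering and at 1 within a single cluster. In C1q macrophages of primary tumor against lung the count was 4 with DESeq2 and without a filter on low counts, 3 with cells thinned to 1000 UMIs, 3 within a single cluster and 0 to 4 with 1 library left out. Without the filter it was 5 for metastasis against primary tumor in C1q macrophages, 6 in nonclassical monocytes and 1 in fibroblasts. Nonclassical monocytes had 1 with DESeq2, 1 without both libraries that stood apart and 0 to 4 with 1 library left out. Endothelial cells of primary tumor against lung had 7 in replicates 5 and 6 alone and 2 to 6 with 1 library left out. Endothelial cells of metastasis against primary tumor had 6 in those replicates, 1 with at least 50 cells, 0 thinned, 4 without both libraries and 1 to 3 with 1 left out. Fibroblasts had 3 without both libraries. The single-cluster fit and the fits without both libraries were chosen after seeing the data. The cause of these changes was not tested. The share of all genes called under each setting is not given here, so a higher or lower count is not particular to the members.

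With the replicate block the count was 5 in C1q macrophages and 5 in classical monocytes of primary tumor against lung and 3 in nonclassical monocytes, and the block changed no other count of the 10 contrasts it could be fitted in. Dendritic cells were not fitted with it. Without lung replicate 6 the median log2 fold change of fibroblasts turned to 0.84. No contrast with 3 or more same-numbered pairs of libraries had every correlation of deviations above 0.1. In endothelial cells of metastasis against primary tumor the replicates that share mice, 1-3, 5 and 6, had 0.16, 0.18 and 0.20. Replicate 4, of different mice, had -0.086.

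Of the pathway genes, 2 were called in metastasis against lung over all types, which became 5 without the filter, 0 with at least 50 cells, 1 in replicates 5 and 6, 1 thinned, 5 at resolution 1.0, 8 with class II genes in the clustering, 1 without both libraries, 0 within a single cluster and 1 to 3 with 1 library left out. Primary tumor against lung had 8, which became 16, 5, 3, 5, 15, 15 and 5 under the first 7 of these and 4 to 9 with 1 left out. Metastasis against primary tumor had 2, and 0 in replicates 5 and 6.

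The mean log2 ratio of H2-Ab1 between dendritic cells and C1q macrophages turned to -0.061 without primary tumor replicate 1-3 (range -0.061 to 0.58), and that between fibroblasts and T and NK cells to 0.088 without lung replicate 5 (range -0.36 to 0.088). The median percent of cells with an H2-Ab1 UMI follows depth. Without thinning it was 50.0% in alveolar macrophages, 48.8% in classical and 24.1% in nonclassical monocytes, 60.5% in AT-2 and 43.0% in endothelial cells. At 500 UMIs it was 18.6% in alveolar macrophages, 19.1% in classical monocytes, 82.9% in dendritic cells, 45.4% in B cells and 16.3% in AT-2. C1q macrophages of metastasis against lung could not be fitted at resolution 1.0 or with at least 50 cells.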

Other observations

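Club cells, secretory cells of the airway, differed in Cd74 by library. Lung replicate 6, with 1322 of them, had 3.00 Cd74 UMIs per H2-Ab1 UMI (1026 and 342 CPM) and stood apart as given above. In metastasis replicate 5 their Cd74 was 551 CPM and their H2-Ab1 51.6 CPM, beside 40.7 and 17.4 CPM in fibroblasts of that library. Metastasis replicate 6 had 375 and 65.7 CPM in 38 club cells and lung replicate 5 had 510 and 75.9 CPM in 40. These 3 libraries had 14 to 19 H2-Ab1 UMIs each, too few for a ratio, no test was made, and the part of neighbouring AT-2 cells in these values was not tested.

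In melanoma cells sorted from metastasis replicate 5, H2-DMa had 103 UMIs and H2-DMb1 69 in 11233 cells, against 20 of H2-Ab1. Melanoma cells sorted from primary tumor replicate 5 had 69 and 55 UMIs, against 44 of H2-Ab1 in 6176 cells, and those of primary tumor replicate 4 had 117 and 91, against 81 in 30334 cells. Both H2-DM genes thus had more UMIs than H2-Ab1 in these 3 libraries, unlike in C1q macrophages, dendritic cells and B cells. Those of metastasis replicate 4 had 5 and 0 UMIs, against 16. Melanoma cells of the tissue libraries went the other way too. In metastasis replicate 5 they had 32 and 15 UMIs, against 39 of H2-Ab1 in 2090 cells. In primary tumor replicates 4 and 6 they had 4 and 4 against 28, and 5 and 5 against 19. H2-DMa in the 4 sorted libraries was 1.72 to 3.43 CPM, beside 20.7 to 92.1 CPM in T and NK cells of the tissue libraries, and the part of free RNA in these values was not tested.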
